A study of Mus musculus with 15 samples.

Results

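The genes described here encode the MYC and MAX network, a set of transcription factors that compete for one partner and for the same DNA sites. They are Myc, Mycn, Mycl, Max, Mxd1, Mxd3, Mxd4, Mxi1, Mnt and Mlx, taken as the rows of the count table that carry these symbols, so 10 of its 22507 genes. Counts were high enough for a test in 9 of the 10 members and in 13074 genes in all; Mycl, at 0 to 14 counts in a library, was not tested. The cells were N2a, a line from a mouse neuroblastoma, transfected with a plasmid together with siRNA (50 nM) and harvested on day 3, and their RNA gave 15 libraries in 5 groups of 3. The V560F group and the V465F group received siRNA against Opa1 and a plasmid for OPA1 carrying that substitution. The wild-type OPA1 group received the same siRNA and a plasmid for OPA1 without a substitution, and the knockdown group the same siRNA and a control plasmid. The control group received control siRNA and a control plasmid, so every group was transfected with both kinds of nucleic acid. OPA1 is a dynamin-like GTPase that fuses inner mitochondrial membranes, and its mutations cause dominant optic atrophy. All groups come from 1 cell line, and nothing in the labels ties a replicate to a culture of its own, so the p-values rest on a spread among libraries that may be technical.

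MYC, MYCN and MYCL bind DNA only as dimers with MAX, chiefly at E boxes, and activate genes of growth, ribosome production and metabolism. The MXD proteins (MXD1, MXI1, MXD3 and MXD4) and MNT also pair with MAX and bind the same boxes, but recruit SIN3 and histone deacetylases and repress. MLX is a second partner, which joins MXD1, MXD4, MNT and the nutrient-sensing factors MondoA and ChREBP. Extra copies of MYCN mark an aggressive class of human neuroblastoma.

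The promoters of Mxd1 and Mnt, the members called lower with both mutants than with wild-type OPA1 in the counts, and of Mxd4 and Mlx, which were higher with V560F in the counts, show how the letters of the core E box, CACGTG, are spread over the network. Each runs from 250 bases before to 50 bases after a transcription start and is from RefSeq on GRCm38.p6, printed 5′ to 3′ on the gene's strand, with CACGTG in capitals. They lie at chr6:86669110-86669409 (minus strand, Mxd1), chr11:74830674-74830973 (plus strand, Mnt), chr5:34187661-34187960 (minus strand, Mxd4) and chr11:101087040-101087339 (plus strand, Mlx).
Mxd1: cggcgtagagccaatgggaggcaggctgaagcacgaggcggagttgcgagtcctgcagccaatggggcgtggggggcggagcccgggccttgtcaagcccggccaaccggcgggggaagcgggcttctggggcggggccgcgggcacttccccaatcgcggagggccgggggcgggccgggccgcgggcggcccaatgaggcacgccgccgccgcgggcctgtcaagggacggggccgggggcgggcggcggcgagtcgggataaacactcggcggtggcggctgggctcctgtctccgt
Mnt: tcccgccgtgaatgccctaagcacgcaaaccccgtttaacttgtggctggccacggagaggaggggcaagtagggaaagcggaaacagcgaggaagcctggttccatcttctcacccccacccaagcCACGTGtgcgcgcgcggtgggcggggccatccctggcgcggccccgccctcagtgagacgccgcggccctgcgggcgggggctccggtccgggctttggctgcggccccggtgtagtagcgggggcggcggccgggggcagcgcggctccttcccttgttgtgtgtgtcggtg
Mxd4: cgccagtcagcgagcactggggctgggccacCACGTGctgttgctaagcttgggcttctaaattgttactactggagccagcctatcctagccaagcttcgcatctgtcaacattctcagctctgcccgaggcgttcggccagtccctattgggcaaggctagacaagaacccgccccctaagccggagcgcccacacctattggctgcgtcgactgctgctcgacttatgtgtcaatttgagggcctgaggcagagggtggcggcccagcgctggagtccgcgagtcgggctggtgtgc
Mlx: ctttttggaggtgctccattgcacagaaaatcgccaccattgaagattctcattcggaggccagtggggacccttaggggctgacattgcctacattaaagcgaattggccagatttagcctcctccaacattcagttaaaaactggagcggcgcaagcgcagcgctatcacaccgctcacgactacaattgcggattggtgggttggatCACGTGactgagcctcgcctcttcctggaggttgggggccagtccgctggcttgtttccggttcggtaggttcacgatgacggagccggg

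A promoter was at hand for 9 of the 10 members. CACGTG, which reads alike on both strands, was found in 4 of these 9 genes (44.4%), against 8.09% of all genes with a promoter in the table. Its first base lay 219 bases before the start in Mxd4, 123 before it in Mnt, 40 before it in Mlx and 3 before it in Max. It was not in the windows of Mxd1, Mycn, Mycl, Mxd3 and Mxi1, which says only that these letters are not in them. In the list of 40 genes known to be induced by MYC, used below, 8 of 32 genes with a promoter held it (25%).

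The deposited counts summed to 20070123 to 27809960 in a library. Opa1 (Entrez gene 74143), the target of the siRNA, stood at 36.8 ± 2.52 CPM in the knockdown group and at 95.9 ± 4.94 CPM in the control group (SD, n = 3 each), where CPM is the count relative to the TMM-scaled total of its library. It stayed at 32 to 33.9 CPM with the mutants and at 31.4 CPM with wild-type OPA1. Of 12 markers of sympathetic neuroblasts, 10 were tested, with Hand2 at 180 to 261 CPM, while Hand1 was at or near 0 (at most 10 counts). Their summed level was 682 to 798 CPM with V560F, 673 to 717 CPM with V465F, 809 to 889 CPM with wild-type OPA1, 788 to 815 CPM in knockdown and 833 to 879 CPM in control, and the part of this in the results below was not tested. Marker sums of fibroblasts (4.16 to 7.76 CPM), glia (1.05 to 2.94 CPM) and macrophages (0.224 to 0.757 CPM) were near 0. The libraries also differed in how abundance tracked transcript length. For each 10-fold gain in length, the log2 level relative to the mean of all libraries changed by -0.48 with V560F, -0.25 with V465F, 0.10 with wild-type OPA1, 0.21 in knockdown and 0.42 in control, and V560F replicate 2 stood farthest out at -0.82. This gradient runs along the groups, so results are given also after a correction for length and GC content. They are given as well on the deposited FPKM scale (counts divided by transcript length and by the library's total). FPKM uses the same length for a gene in all libraries, so it does not remove the gradient.

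**Figure D1:**
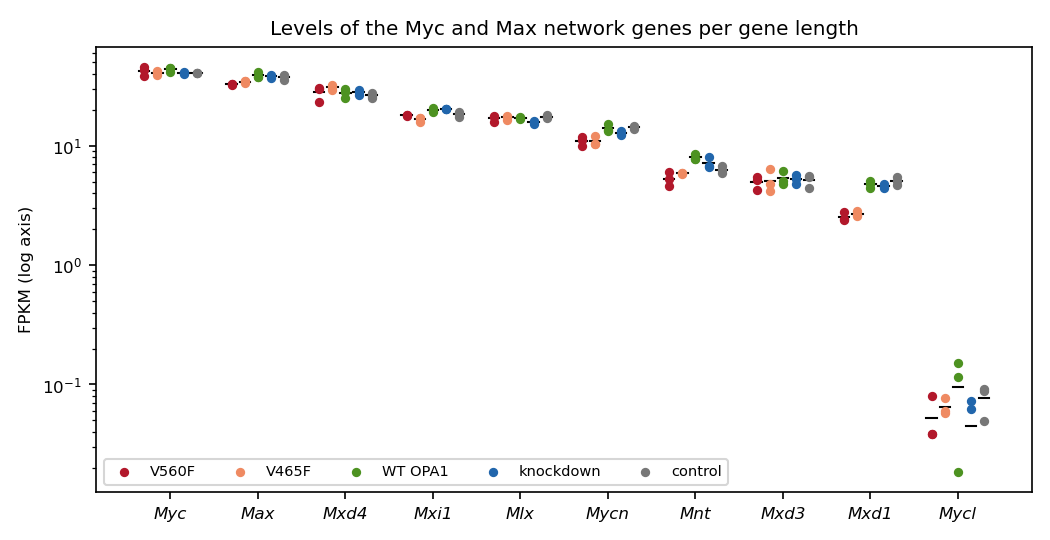
Level of each member in FPKM (log axis) in the 15 libraries, 3 points a group with V560F at the left of each gene and control at the right, genes in order of their mean. Myc, Max and Mxd4 stand highest, Mycl lies far below the rest, and 1 knockdown library with Mycl at 0 cannot be drawn on this axis.

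Per length, Myc and Max were the most abundant members. Over the 15 libraries Myc (Entrez gene 17869) averaged 41.8 FPKM, its partner Max (17187) 36.5 FPKM and the repressor Mxd4 (17122) 28.3 FPKM. Mxi1 (17859) followed at 18.7 FPKM, Mlx (21428) at 16.9 FPKM and Mycn (18109) at 12.6 FPKM. The lowest tested members were Mnt (17428) at 6.55 FPKM, Mxd3 (17121) at 5.17 FPKM and Mxd1 (17119) at 3.93 FPKM. Mycl (16918), the third MYC gene, averaged 0.0667 FPKM, with 13, 16, 28, 13 and 21 counts summed over the V560F, V465F, wild-type OPA1, knockdown and control groups. Among the 22507 genes, the mean FPKM of Myc lay at percentile 93.7 and that of Mxd1 at percentile 67.3. In all 15 libraries Myc exceeded Mycn, at 38.3 to 45.6 FPKM against 9.94 to 15.3 FPKM.

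Across the 5 groups, 7 of the 9 tested members differed by edgeR's quasi-likelihood test at an adjusted p under 0.05 (Benjamini-Hochberg over 13074 genes), against 71.4% of all genes, so the share is near the background. The lowest adjusted p was that of Mxd1 (edgeR adjusted p = 4.76e-07), followed by Mxd4 (3.1e-05), Myc (8.52e-05), Mlx (0.000119), Mnt (0.00012), Mxi1 (0.00018) and Max (0.0293). Mycn (edgeR adjusted p = 0.292) and Mxd3 (0.264) did not pass. The test of Max was lost without control replicate 1 (edgeR adjusted p = 0.0571) or control replicate 2 (0.222). The other calls held with each single library left out. Over 24 alternative settings, which include these, Max and Mxd4 lost their calls in 3 each and Myc and Mlx in 2 each. Mxd1, Mxi1 and Mnt kept theirs in all 24.

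Both mutants differed from wild-type OPA1 in the repressors Mxd1, Mnt and Mxd4. With V560F, Myc, Mxd4 and Mlx rose and Mxd1 and Mnt fell against wild-type OPA1 (5 of 9 members called by edgeR, against 49.4% of all genes, 24.5% higher and 24.9% lower). With V465F, Mxd4 rose and Mxd1 and Mnt fell (3 of 9, against 38.2%, 18.1% higher and 20% lower). Of these calls, Mxd1 alone held its sign and its call on the FPKM scale and after the length and GC correction in both comparisons. Knockdown cells had more Mxd4, Mxi1 and Mnt than control cells (3 of 9, all higher, against 35.9%; 19.9% of all genes were called higher).

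The mutants were also set against knockdown and control, whose libraries serve several of these comparisons. Against knockdown, 4 of 9 members were called with V560F (53.8% of all genes) and 4 of 9 with V465F (46%), and in each Myc, Mxd4 and Mlx rose and Mxd1 fell (all genes: 26.3% higher and 27.6% lower with V560F, 21.9% and 24.1% with V465F). Against control, 6 of 9 were called with V560F (5 higher, 1 lower, against 69.1% of all genes), 7 of 9 with V465F (6 higher, 1 lower, against 65.3%) and 5 of 9, all higher, with wild-type OPA1 (41.4%). The shares of all genes called higher and lower in these 3 comparisons were 32.9% and 36.2%, 30.7% and 34.5%, and 22.1% and 19.3%. The median log2 fold change of the 9 members against control was 0.38 with V560F, 0.24 with V465F, 0.22 with wild-type OPA1 and 0.16 in knockdown, where the median of all genes was -0.06 to 0.01. Beside these shares of all genes, the members' counts are no result about the network as a set.

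Wild-type OPA1 against knockdown, and the mutants against each other, gave no call among the members. For wild-type OPA1 over knockdown, edgeR called 0 of 9 members and 0% of all genes; at an unadjusted p under 0.05 there were 1 member (Mnt) and 1157 genes, DESeq2 called 7 genes and 0 members, and limma on FPKM called 0 genes. For V465F over V560F, edgeR called 0 of 9 members and 0.00765% of genes (1 gene); at an unadjusted p under 0.05 there were 1 member (Mxi1) and 2373 genes, and DESeq2 called 144 genes and 0 members. Log2 differences between the mutants ran from -0.22 (Mxi1, 95% interval -0.36 to -0.08) to 0.07 (Mnt, -0.10 to 0.24). A p above the threshold does not show that the mutants act alike, and these intervals give the sizes that the data allow.

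**Figure D2:**
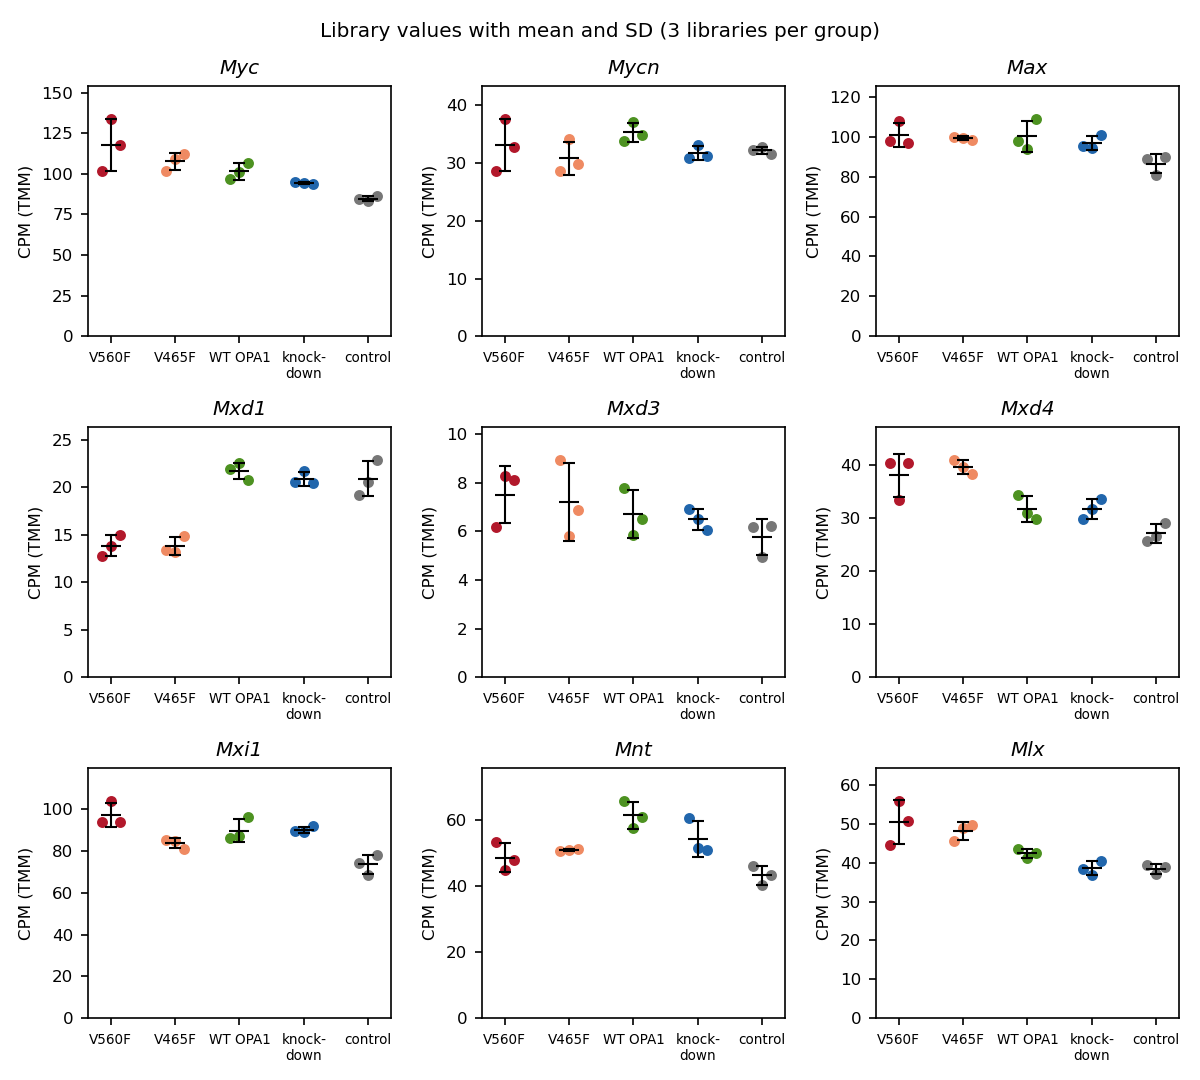
CPM (counts relative to the TMM-scaled library total) of the members in each library (points) with the group mean and SD (n = 3), one panel a gene, groups from V560F at the left to control at the right, axes from 0. The 6 mutant libraries of Mxd1 (12.8 to 15 CPM) lie below the other 9 (19.2 to 22.9 CPM), while the libraries of Mycn and Mxd3 overlap in most groups.

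Mxd1 encodes a MAX partner that rises as cells stop dividing and mature. In the V560F libraries it had 12.8, 13.8 and 15 CPM and in the V465F libraries 13.4, 13.2 and 14.9 CPM. It had 21.9, 22.5 and 20.8 CPM with wild-type OPA1, 20.5, 21.7 and 20.4 CPM in knockdown and 19.2, 20.6 and 22.9 CPM in control. All 6 mutant libraries were lower than every other library, and the other 3 groups overlapped.

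Against wild-type OPA1, Mxd1 fell by 36.2% with V560F (log2 fold change -0.65 ± 0.0956 (SE), 95% interval -0.85 to -0.45, edgeR adjusted p = 1.06e-05) and by 36.4% with V465F (-0.65 ± 0.0949, edgeR adjusted p = 2.57e-05). Against knockdown it fell by 33.6% with V560F (log2 fold change -0.59, edgeR adjusted p = 2.25e-05) and fell by 33.8% with V465F (-0.60, edgeR adjusted p = 3.85e-05), and after the length and GC correction these values were -0.36 and -0.42, both called. Mxd1 in knockdown over control stood at a log2 fold change of 0.00 (interval -0.19 to 0.19, edgeR adjusted p = 0.989). The mutants did not separate from each other, with a difference of 0.00 (interval -0.21 to 0.20).

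The size of the Mxd1 difference depended on the scaling, and its direction did not. After the length and GC correction the log2 fold change against wild-type OPA1 was -0.42 with V560F (edgeR adjusted p = 0.000605) and -0.48 with V465F (edgeR adjusted p = 0.000192); on log2(FPKM + 1) it was -0.71 and -0.64 in the same order. These scalings shift the log2 fold changes of all genes. The shift is the median over genes of each gene's change from its value on the counts. For V560F over wild-type OPA1 it was 0.13 with the correction and -0.23 on FPKM. Less that shift, Mxd1 stood at -0.56 and -0.48. FPKM rescales the same counts, so its value less the shift is no separate check. Across 6 comparisons of a mutant with wild-type OPA1, knockdown or control and 25 alternative settings, the call held in 150 of 150, with log2 fold changes of -0.99 to -0.25 and adjusted p of 1.27e-08 to 0.0249. With 232 to 668 counts in a library, Mxd1 was measured at a moderate depth.

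Mnt is the broadly expressed repressor of the network and binds MAX as well as MLX. Its libraries had 53.3, 44.9 and 47.8 CPM with V560F, 50.6, 51.1 and 51.3 CPM with V465F and 65.9, 57.6 and 60.8 CPM with wild-type OPA1. Knockdown libraries had 60.5, 51.5 and 51 CPM and control libraries 46.1, 40.4 and 43.5 CPM. The wild-type OPA1 libraries lay above all mutant libraries, and the control libraries below all but those of V560F.

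Mnt was higher in knockdown than in control on the counts (log2 fold change 0.33 ± 0.0801, edgeR adjusted p = 0.00337), at 0.53 after the length and GC correction and at 0.16 and not called on FPKM (limma adjusted p = 0.18). It was also higher with wild-type OPA1 than in control (0.50 ± 0.0797, edgeR adjusted p = 5.85e-05; 0.71 after correction and 0.30 on FPKM, both called), though wild-type OPA1 over knockdown was not called (0.18, edgeR adjusted p = 0.548). Against wild-type OPA1 it was lower with V560F (log2 fold change -0.34 ± 0.0807, edgeR adjusted p = 0.00154), where the sign turned to 0.02 after the length and GC correction, and lower with V465F (-0.27 ± 0.0802, edgeR adjusted p = 0.0112), where the corrected value was -0.01. At 7929 bases Mnt is the longest transcript of the network. The V465F call was lost without wild-type OPA1 replicate 1 (edgeR adjusted p = 0.0688). Mnt with V465F over control (0.24, edgeR adjusted p = 0.0147) was lost without control replicate 2 (0.0822) and stood at 0.69 after correction and at -0.08 on FPKM. V560F over control was not called on the counts (0.17, edgeR adjusted p = 0.0725), but was called without V560F replicate 2 (edgeR adjusted p = 0.0176) or control replicate 1 (0.0449). It was called in opposite directions after correction (0.72, edgeR adjusted p = 9.34e-10) and on FPKM (-0.22, limma adjusted p = 0.0352). V560F over knockdown was not called on the counts (-0.16, edgeR adjusted p = 0.101), but was called without V560F replicate 1 (0.0282). It too was called in opposite directions after correction (0.20, edgeR adjusted p = 0.0267) and on FPKM (-0.37, limma adjusted p = 0.00203).

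Mxi1 is another MAX-binding repressor. It had 93.9, 104 and 93.9 CPM with V560F, 85.3, 84.9 and 81 CPM with V465F and 86.1, 86.9 and 96.2 CPM with wild-type OPA1. Knockdown libraries had 89.4, 89.2 and 91.7 CPM and control libraries 74, 68.6 and 77.9 CPM. The control libraries were the lowest of all 15.

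Mxi1 was 22.7% higher in knockdown than in control (log2 fold change 0.29 ± 0.0662, edgeR adjusted p = 0.00183), and this call held in all 25 alternatives. With wild-type OPA1 it was 22.1% higher than in control (0.29, edgeR adjusted p = 0.00156; 0.12 and not called on FPKM). Over control it was also higher with V560F (0.41, edgeR adjusted p = 1.24e-05) and V465F (0.19, edgeR adjusted p = 0.0172), but these signs turned on FPKM, to -0.02 and -0.13, and after correction the values were 0.70 and 0.45. The V465F call was lost without V465F replicate 1 (edgeR adjusted p = 0.0528), V465F replicate 2 (0.0516) or control replicate 2 (0.106). Mxi1 with V560F over wild-type OPA1 was not called (0.12, edgeR adjusted p = 0.148; -0.14 on FPKM), and was called without wild-type OPA1 replicate 3 (0.0436). Its exons overlap those of Gm10197 on the opposite strand over 194 bases, and the strand setting of the counting is not given in the sources used here, so reads of the pair may be mixed.

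Mxd4, the MXD gene of highest level per length here (in FPKM; in CPM it is Mxi1), had 40.4, 33.4 and 40.4 CPM with V560F, 41, 39.7 and 38.3 CPM with V465F and 34.4, 31 and 29.8 CPM with wild-type OPA1. It had 29.8, 31.7 and 33.6 CPM in knockdown and 25.6, 26.6 and 29.1 CPM in control. The V465F libraries lay above every library without a mutant, and V560F replicate 2 fell among those of wild-type OPA1. Against wild-type OPA1 the log2 fold change was 0.32 ± 0.0849 with V465F (edgeR adjusted p = 0.00458; 0.14 and not called after correction, 0.15 and not called on FPKM) and 0.27 ± 0.0855 with V560F (edgeR adjusted p = 0.0132), which was -0.02 after correction and 0.00 on FPKM. The V560F call was lost without V560F replicate 1 (edgeR adjusted p = 0.0576), V560F replicate 3 (0.0601) or wild-type OPA1 replicate 3 (0.0504).

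Against control, Mxd4 was 40.4% higher with V560F and 46.3% higher with V465F (log2 fold changes 0.49 and 0.55, edgeR adjusted p = 2.88e-05 and 8.04e-06). After the length and GC correction these values were 0.07 and 0.23, and neither was called; on FPKM they were 0.06 and 0.21, the second called. Against knockdown Mxd4 stood at 0.26 with V560F (edgeR adjusted p = 0.0122; -0.06 after correction, -0.01 on FPKM) and 0.32 with V465F (0.00362; 0.10 after correction and 0.14 on FPKM, called on neither). The V560F value was not called without V560F replicate 1 (edgeR adjusted p = 0.0549), V560F replicate 3 (0.0568) or knockdown replicate 1 (0.0625).

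For wild-type OPA1 over control, Mxd4 stood at 0.22 (edgeR adjusted p = 0.0384), a call lost after the length and GC correction (0.09, edgeR adjusted p = 0.509) and on FPKM (0.06, limma adjusted p = 0.601). It was also lost without wild-type OPA1 replicate 1 (0.177) or 2 (0.0539) or control replicate 1 (0.134) or 2 (0.109). Knockdown over control was 0.23 for Mxd4 (edgeR adjusted p = 0.0435), a call lost likewise after the correction (0.14, edgeR adjusted p = 0.295) and on FPKM (0.08, limma adjusted p = 0.519). This last call was also lost without V465F replicate 2 (edgeR adjusted p = 0.0529) or 3 (0.05), wild-type OPA1 replicate 3 (0.0524), knockdown replicate 2 (0.0923) or 3 (0.168), or control replicate 1 (0.148) or 2 (0.121). At 1179 bases Mxd4 is the shortest transcript of the network, and it overlaps the antisense gene Gm42846 over 353 bases.

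Mxd3, linked to dividing progenitor cells, had the lowest CPM of the tested members. It had 6.16, 8.25 and 8.11 CPM with V560F, 8.94, 5.8 and 6.86 CPM with V465F, 7.79, 5.85 and 6.52 CPM with wild-type OPA1, 6.92, 6.49 and 6.06 CPM in knockdown and 6.19, 4.93 and 6.2 CPM in control. The libraries of every pair of groups overlapped, and no comparison was called. V560F over control came nearest (log2 fold change 0.38 ± 0.17, interval 0.03 to 0.73, edgeR adjusted p = 0.0501; -0.04 on FPKM). It was called without V560F replicate 1 (edgeR adjusted p = 0.0165), V465F replicate 1 (0.0373) or 2 (0.0423), or wild-type OPA1 replicate 1 (0.0486) or 2 (0.0493), and V465F over control (0.32, edgeR adjusted p = 0.0966) without V465F replicate 2 (0.0324). At 108 to 192 counts a library its standard errors, 0.165 to 0.171, were the widest of the members. Mxd3 shares 105 exon bases with Prelid1 on the opposite strand, so these few counts may hold reads of that gene.

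Myc, the MYC gene with the most RNA in these cells, had 102, 134 and 118 CPM with V560F, 102, 109 and 112 CPM with V465F and 96.6, 101 and 107 CPM with wild-type OPA1. It had 94.7, 94.1 and 93.5 CPM in knockdown and 84.3, 83.3 and 86.4 CPM in control. The control libraries were the lowest and the knockdown libraries next, while the 3 OPA1 plasmid groups overlapped. In order of mean level the groups ran from control through knockdown, wild-type OPA1 and V465F to V560F, and no neighbours in that order were called apart.

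Against control, Myc was 39.4% higher with V560F (log2 fold change 0.48 ± 0.0756, edgeR adjusted p = 7.38e-06), 26.8% higher with V465F (0.34, edgeR adjusted p = 0.000431) and 19.8% higher with wild-type OPA1 (0.26, edgeR adjusted p = 0.00826). The knockdown value of 0.15 was not called (edgeR adjusted p = 0.117). On FPKM these 4 values were 0.05, 0.01, 0.10 and 0.01 and none was called, and after the length and GC correction they were 0.46, 0.36, 0.26 and 0.20 and all were called. Both scalings shift the log2 fold changes of all genes, measured as for Mxd1 by the median change per gene. On FPKM, taking off that shift largely restores the scale of the counts, so those values are no separate check. Less that shift, Myc over control stood at 0.41 with V560F, 0.30 with V465F, 0.24 with wild-type OPA1 and 0.14 in knockdown on FPKM, and at 0.25, 0.15, 0.18 and 0.12 in the same order after the correction. The wild-type OPA1 call was lost without wild-type OPA1 replicate 3 (edgeR adjusted p = 0.0531), and the knockdown value was called without V560F replicate 2 (0.0366).

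With V560F, Myc was 16.4% higher than with wild-type OPA1 (log2 fold change 0.22 ± 0.0752, edgeR adjusted p = 0.0196), and the sign turned to -0.05 on FPKM. After the correction it was 0.20 and called, and 0.07 less the shift of all genes. Without V560F replicate 2, the highest library, the value was 0.12 (edgeR adjusted p = 0.152), and the call was also lost without wild-type OPA1 replicate 1 (0.0867) or 2 (0.0544). V465F over wild-type OPA1 was 0.08 (interval -0.07 to 0.24, edgeR adjusted p = 0.419; -0.08 on FPKM). Over knockdown, Myc was higher with V560F (0.33, edgeR adjusted p = 0.000929; 0.04 and not called on FPKM) and with V465F (0.19, edgeR adjusted p = 0.0443; 0.00 on FPKM). The V465F call was lost without V465F replicate 2 (edgeR adjusted p = 0.106) or 3 (0.152), wild-type OPA1 replicate 2 (0.0505), knockdown replicate 1 (0.0833), 2 (0.0953) or 3 (0.1), or control replicate 1 (0.0516), 2 (0.053) or 3 (0.0535). The deposited column names of the control and knockdown libraries contain the letters "myc", whose meaning the labels do not give; Myc in CPM was lower in those 6 libraries than in the other 9.

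Mycn, the MYC gene of neural precursors, had 28.7, 37.7 and 32.8 CPM with V560F, 28.6, 34.1 and 29.8 CPM with V465F, 33.9, 37.2 and 34.9 CPM with wild-type OPA1, 30.8, 33.2 and 31.3 CPM in knockdown and 32.3, 32.8 and 31.6 CPM in control. The groups overlapped, except that wild-type OPA1 lay above knockdown and control. No comparison was called on the counts. The nearest was V465F over wild-type OPA1 (log2 fold change -0.20 ± 0.0889, edgeR adjusted p = 0.0855), which was called without V560F replicate 2 (0.0363) or V465F replicate 2 (0.0352). On FPKM Mycn was lower with both mutants than with wild-type OPA1 (-0.34 each, limma adjusted p = 0.00178 with V560F and 0.00295 with V465F), and after the length and GC correction neither was called (-0.07 and -0.16).

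Max, the shared partner, had 97.8, 108 and 97 CPM with V560F, 100, 99.4 and 98.2 CPM with V465F and 97.7, 94 and 109 CPM with wild-type OPA1. It had 95.3, 94.2 and 101 CPM in knockdown and 88.9, 81 and 89.6 CPM in control. The control libraries were the lowest, and the other 4 groups overlapped. Over control the log2 fold change was 0.22 with V560F (edgeR adjusted p = 0.00597), 0.20 with V465F (edgeR adjusted p = 0.0131) and 0.21 with wild-type OPA1 (edgeR adjusted p = 0.0144), but on FPKM the mutants' signs turned, to -0.20 and -0.13, and the wild-type OPA1 value was 0.05 and not called (limma adjusted p = 0.415). After the correction all 3 were called (0.24, 0.24 and 0.23). The V465F call was lost without control replicate 2 (edgeR adjusted p = 0.0827). The wild-type OPA1 call was lost without wild-type OPA1 replicate 3 (0.14, adjusted p = 0.126) or control replicate 2 (0.17, adjusted p = 0.0933), and the knockdown value of 0.16 (edgeR adjusted p = 0.0663) was called without V560F replicate 2 (0.029).

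Mlx, the second partner, had 44.6, 55.9 and 50.7 CPM with V560F, 45.6, 49 and 49.7 CPM with V465F and 43.5, 41.1 and 42.4 CPM with wild-type OPA1. It had 38.4, 36.8 and 40.4 CPM in knockdown and 39.4, 37 and 38.8 CPM in control. All 6 mutant libraries lay above all other libraries. Against knockdown Mlx was 30.7% higher with V560F (log2 fold change 0.39 ± 0.0771, edgeR adjusted p = 0.000222) and 24.7% higher with V465F (0.32 ± 0.077, edgeR adjusted p = 0.00185), and on FPKM these were 0.10 and 0.13, not called. After the length and GC correction they were 0.35 and 0.31, both called (edgeR adjusted p = 7.9e-05 and 0.000418), and 0.23 and 0.20 less the shift of all genes. Knockdown over control was 0.01 (interval -0.15 to 0.17).

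Against wild-type OPA1, Mlx stood at 0.25 ± 0.0766 with V560F (edgeR adjusted p = 0.00907; 0.24 after correction, -0.01 on FPKM), a call lost without V560F replicate 2 (0.17, edgeR adjusted p = 0.0695). With V465F it was 0.18 (edgeR adjusted p = 0.062; 0.20 and called after correction), and was called without V560F replicate 1 (0.0353) or 2 (0.0267). Over control it was 0.39 with V560F (edgeR adjusted p = 0.000103) and 0.32 with V465F (0.000817), and both signs turned on FPKM (-0.03 and -0.01). After the correction these values were 0.40 and 0.36, both called, and 0.18 and 0.15 less the shift of all genes. Mlx shares 385 exon bases with Psmc3ip on the opposite strand, so its counts may hold reads of that gene.

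**Figure D3:**
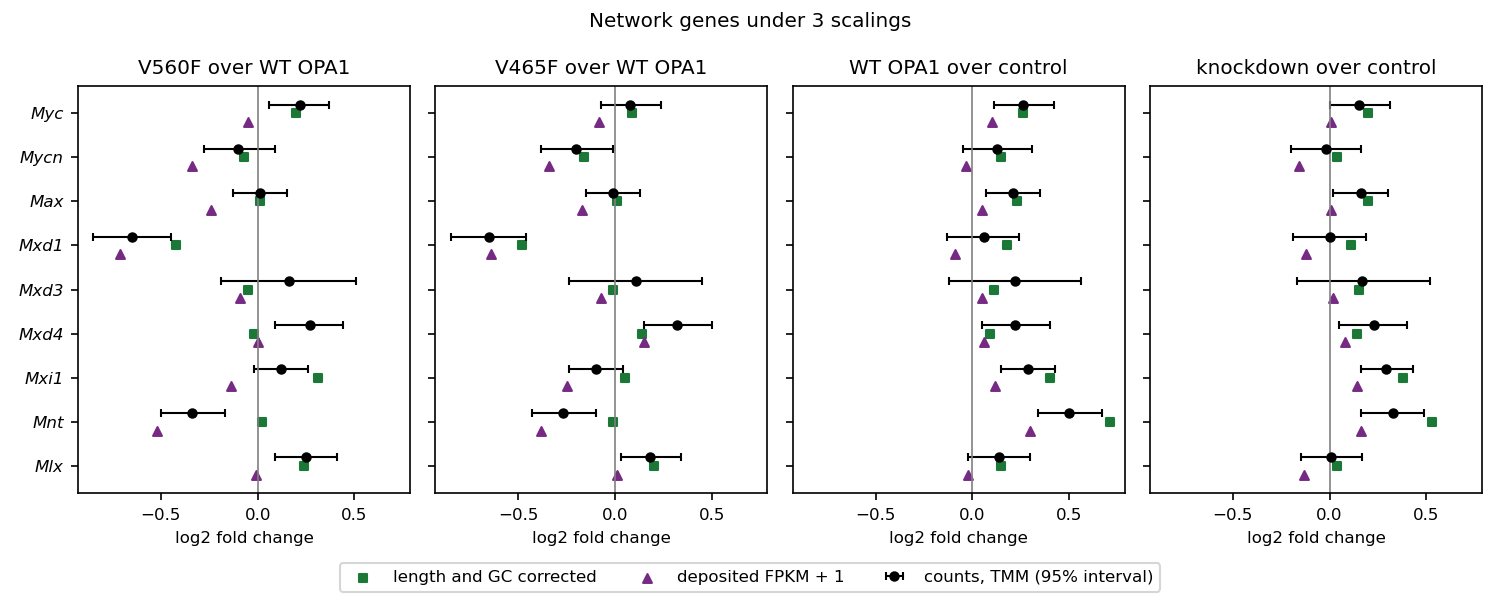
Log2 fold change of each tested member in 4 comparisons (the group named first over the second) on 3 scales, with black circles and 95% intervals for the counts, green squares after the length and GC correction and purple triangles for log2(FPKM + 1). Mxd1 lies left of 0 on each scale in both mutant comparisons. With V560F, Mnt, Mxd3 and Mxd4 turn sign after the correction, and Myc, Max, Mxd3, Mxi1 and Mlx on FPKM. Some members turn sign in the other comparisons too, among them Myc and Mxd3 with V465F on FPKM.

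The 3 scales were set side by side because 37 member values were called on the counts. On log2(FPKM + 1) the median change of a gene from its value on the counts was -0.13 in knockdown and -0.37 with V560F over control. It was -0.23 with V560F and -0.15 with V465F over wild-type OPA1. Less that shift, 37 of the 37 called values had the sign they had on the counts. FPKM rescales the same counts by library, so this agreement was largely fixed in advance and is no separate check. After the length and GC correction the median change per gene was 0.08 to 0.22 in the comparisons with control. Less that shift, 33 of 37 kept their sign. The calls over all genes moved with it. Of those in V560F over wild-type OPA1, 49.6% were higher on the counts, 17.8% on FPKM and 63.9% after the correction, and in knockdown over control these shares were 55.4%, 22.5% and 69.4%. The 4 member values that turned were Mxd4 with V560F over wild-type OPA1, knockdown and control, and with V465F over knockdown.

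Ratios within a library need no scaling between libraries. Per length, Mxd1 stood to Myc at 0.0599 ± 0.00683 with V560F and 0.0651 ± 0.00331 with V465F, and at 0.109 ± 0.00899 with wild-type OPA1, 0.112 ± 0.00414 in knockdown and 0.125 ± 0.00941 in control (FPKM ratio, SD, n = 3 each). The 6 mutant libraries, at 0.0521 to 0.0675, lay below the other 9, at 0.0983 to 0.134. Mycn stood to Myc at 0.259 ± 0.00189 with V560F, 0.266 ± 0.0223 with V465F, 0.322 ± 0.0202 with wild-type OPA1, 0.312 ± 0.0128 in knockdown and 0.352 ± 0.0127 in control, again with all mutant libraries below all others. The sum of the MXD genes and Mnt over the sum of Myc and Mycn, a rough balance of repressor to activator RNA, averaged 1.12 with V560F, 1.18 with V465F, 1.14 with wild-type OPA1, 1.22 in knockdown and 1.11 in control, and its libraries overlapped among all these groups but knockdown and control. These ratios share the length gradient of the libraries, since Mxd1 (4738 bases) is longer than Myc (2399 bases), while Mycn (2596 bases) is close to Myc in length.

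**Figure D4:**
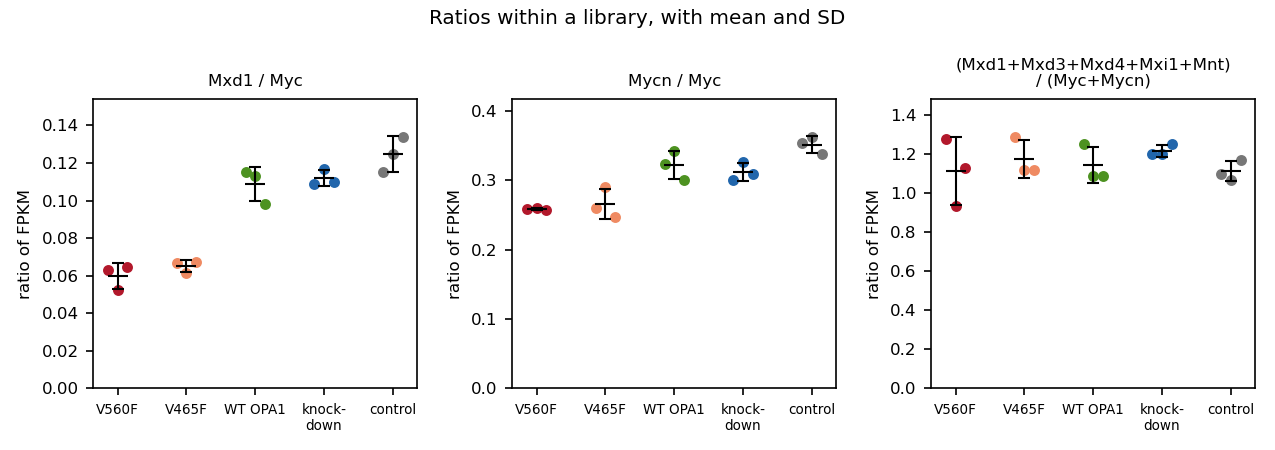
Ratios of FPKM within each library (points) with the group mean and SD (n = 3), groups from V560F at the left to control at the right, axes from 0. Mxd1 over Myc and Mycn over Myc are lower in all 6 mutant libraries than in the other 9, while the summed repressors over Myc and Mycn stand near 1.12 to 1.22 in every group mean.

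Among the further proteins of the network, Mlxip (MondoA, the glucose-sensing partner of MLX) averaged 31.5 ± 5.83 CPM with V560F, 37.7 ± 1.93 CPM with V465F and 48.5 ± 0.692 CPM with wild-type OPA1 (SD, n = 3 each). Knockdown and control stood at 52.5 ± 1.26 and 49.3 ± 1.95 CPM. Its log2 fold change against wild-type OPA1 was -0.62 ± 0.0922 with V560F (edgeR adjusted p = 1.14e-05; -0.32 after correction, still called) and -0.36 ± 0.0906 with V465F (edgeR adjusted p = 0.00326; -0.16 and not called after correction). Mlxip overlaps the antisense gene Gm15747 over 267 bases. Mga, a MAX partner with a T-box, was not called on the counts in either comparison (0.06 with V560F and 0.23 with V465F, edgeR adjusted p = 0.678 and 0.126), and was called after the correction (0.38 and 0.41). Mlxipl (ChREBP) was at 0 to 1 counts and not tested. Of 4 genes known to be induced by MLX with these partners, 2 were tested. Txnip, a brake on glucose uptake, was higher against wild-type OPA1 with V560F (0.93 ± 0.133, edgeR adjusted p = 8.14e-06) and V465F (0.58 ± 0.133, edgeR adjusted p = 0.00185), and also on FPKM (0.63 and 0.38), while the repressor Klf10 was higher with V560F on the counts (0.22, edgeR adjusted p = 0.00692; -0.04 on FPKM) and stood at -0.01 with V465F (edgeR adjusted p = 0.92). Txnip overlaps the antisense gene Gm15441 over 441 bases.

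**Figure D5:**
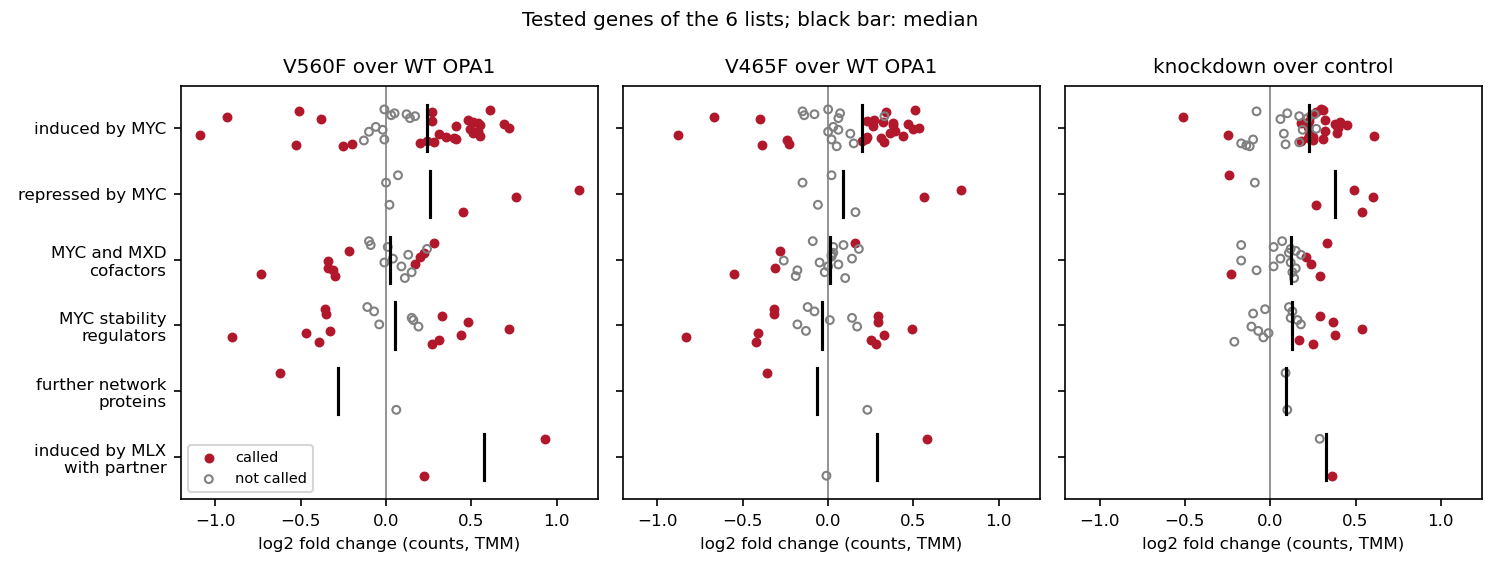
Log2 fold change on the counts of each tested gene of 6 lists in 3 comparisons (the group named first over the second), filled red where edgeR called the gene and open grey where not, with a black bar at the list's median. Most genes known to be induced by MYC lie right of 0 in each comparison, with Hk2 at the far left under both mutants. The median of these genes with V560F is 0.24 on the counts and -0.02 on FPKM, where that of all genes is -0.02 and -0.16.

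Of 40 genes known to be induced by MYC, 39 were tested. In knockdown over control 22 were called higher and 2 lower (all genes, 19.9% higher and 16% lower), with a median log2 fold change of 0.23 against 0.01 for all genes. On FPKM 11 were higher and 5 lower (median 0.08), against 1038 and 3577 of 13074 genes (median -0.09). Against wild-type OPA1, 21 were higher and 7 lower with V560F (all genes, 24.5% and 24.9%; median 0.24 against -0.02) and 19 were higher and 6 lower with V465F (18.1% and 20%; median 0.20 against -0.02). On FPKM the V560F counts turned to 12 higher and 14 lower (median -0.02), against 1254 and 5807 of all genes (median -0.16). The V465F counts on FPKM were 12 and 9 (median 0.03), against 972 and 4297 of all genes (median -0.11). After the length and GC correction the list had 19 and 4 with V560F, and 20 and 3 with V465F. Of 12510 genes, 3760 and 2122, and 3284 and 1772, were then called. For wild-type OPA1 over knockdown edgeR called 0 of the 39, with a median of 0.01.

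Gnl3, a nucleolar GTPase, averaged 152 ± 16.3 CPM with V560F, 141 ± 7.45 CPM with V465F, 104 ± 8.57 CPM with wild-type OPA1, 96.3 ± 1.94 CPM in knockdown and 63.2 ± 2.72 CPM in control. It was higher against wild-type OPA1 with V560F (log2 fold change 0.55 ± 0.0752, edgeR adjusted p = 4.98e-06) and V465F (0.44 ± 0.0751, edgeR adjusted p = 0.00014), and higher in knockdown than in control (0.61 ± 0.0762, edgeR adjusted p = 8.87e-06), on all 3 scales. Gnl3 holds snoRNA genes on its own strand, whose reads may be shared. Tfrc, the transferrin receptor, which brings iron into cells, averaged 117 ± 4.39 CPM with V560F, 110 ± 8.92 CPM with V465F, 76.8 ± 4.07 CPM with wild-type OPA1, 66.8 ± 2.14 CPM in knockdown and 53.7 ± 4.58 CPM in control. It rose with V560F (0.61 ± 0.072, edgeR adjusted p = 1.22e-06) and V465F (0.51 ± 0.0719, edgeR adjusted p = 1.72e-05) against wild-type OPA1, and on FPKM by less (0.33 and 0.32, both called).

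Hk2, the hexokinase bound to mitochondria, went the other way within the same list. It averaged 27.9 ± 1.85 CPM with V560F, 32.2 ± 2.89 CPM with V465F, 59.1 ± 1.62 CPM with wild-type OPA1, 60.8 ± 4.46 CPM in knockdown and 72.2 ± 2.82 CPM in control. Against wild-type OPA1 its log2 fold change was -1.09 ± 0.0784 with V560F (edgeR adjusted p = 4.46e-09) and -0.88 ± 0.077 with V465F (edgeR adjusted p = 1.1e-07), called also on FPKM (-1.16 and -0.92) and after correction (-0.82 and -0.69).

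Of 8 genes known to be repressed by MYC, 6 were tested. In knockdown over control 4 were higher and 1 lower (median 0.38), and against wild-type OPA1 3 were higher and 0 lower with V560F (median 0.26) and 2 higher and 0 lower with V465F (median 0.09). Of all genes, 19.9% were called higher and 16% lower in knockdown, 24.5% and 24.9% with V560F, and 18.1% and 20% with V465F. On FPKM the list had 3 higher and 2 lower in knockdown (median 0.23), 2 and 2 with V560F (0.00) and 2 and 2 with V465F (-0.07), and after the length and GC correction 4 and 0, 3 and 0, and 2 and 0. Gadd45b, a stress gene that acts on p38 signalling, averaged 57.9 ± 10.6 CPM with V560F, 45.4 ± 5.38 CPM with V465F, 26.5 ± 1.68 CPM with wild-type OPA1, 23.3 ± 1.56 CPM in knockdown and 16.6 ± 0.839 CPM in control. Against wild-type OPA1 its log2 fold change was 1.13 ± 0.107 with V560F (edgeR adjusted p = 9.92e-08) and 0.78 ± 0.108 with V465F (edgeR adjusted p = 1.46e-05). Gadd45a rose likewise (0.76 and 0.56, edgeR adjusted p = 5.36e-06 and 0.000363), and both genes were called on all 3 scales. The cell cycle inhibitor Cdkn1a rose with V560F on the counts (0.45, edgeR adjusted p = 0.000394; 0.19 and not called on FPKM) and stood at 0.16 with V465F (edgeR adjusted p = 0.193).

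Of the 18 regulators of MYC protein stability, 6 were higher and 6 lower with V560F against wild-type OPA1, 6 and 5 with V465F, and in knockdown 6 were higher and 0 lower than in control (medians 0.06, -0.03 and 0.13), where 24.5% and 24.9%, 18.1% and 20%, and 19.9% and 16% of all genes were called. In the same order, FPKM gave 3 higher and 9 lower, 3 and 8, and 3 and 2 (medians -0.20, -0.18 and -0.02). The length and GC correction gave 8 and 2, 6 and 2, and 10 and 0. The calls over all genes moved in the same direction. In the same order, 49.6%, 47.5% and 55.4% of those calls were higher on the counts. On FPKM 17.8%, 18.4% and 22.5% were higher, and after the correction 63.9%, 65% and 69.4%. The change of balance with the scaling is therefore no result about this list. Fbxw7, the ubiquitin ligase subunit that marks phosphorylated MYC for destruction, had 12.5 ± 1.48 CPM with V560F, 13.1 ± 1.01 CPM with V465F, 23.4 ± 1.34 CPM with wild-type OPA1, 23.2 ± 1.99 CPM in knockdown and 23.9 ± 1.26 CPM in control. Its log2 fold change against wild-type OPA1 was -0.90 ± 0.102 with V560F (edgeR adjusted p = 7.12e-07) and -0.83 ± 0.101 with V465F (edgeR adjusted p = 3.75e-06), called on all 3 scales, and knockdown over control was -0.04 (edgeR adjusted p = 0.765). Pim1, a kinase known to stabilise MYC, averaged 132 ± 8.23 CPM with V560F, 112 ± 7.23 CPM with V465F, 80.2 ± 5.88 CPM with wild-type OPA1, 77.1 ± 3.68 CPM in knockdown and 52.9 ± 1.23 CPM in control. It rose against wild-type OPA1 with V560F (0.72 ± 0.0695, edgeR adjusted p = 1.13e-07) and V465F (0.49 ± 0.0695, edgeR adjusted p = 2.09e-05) and in knockdown over control (0.54 ± 0.0705, edgeR adjusted p = 1.31e-05), on all 3 scales. Set, an inhibitor of the phosphatase PP2A, was higher with V560F (0.48) and V465F (0.29; edgeR adjusted p = 8.85e-06 and 0.0021), less so on FPKM (0.21 and 0.13, both called), and near-identical copies of Set in the genome may share its reads.

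Of the 20 cofactors of MYC and MXD proteins, 4 were higher and 6 lower with V560F against wild-type OPA1, 1 and 3 with V465F, and 4 and 1 in knockdown over control, with medians of 0.02, 0.01 and 0.12, beside the same shares of all genes as for the stability regulators. On FPKM the counts were 0 higher and 11 lower, 0 and 9, and 1 and 2 (medians -0.24, -0.15 and -0.02), and after the length and GC correction 8 and 2, 5 and 1, and 12 and 0. No direction of the cofactors as a list held across the 3 scales. The calls over all genes, given above for the stability regulators, moved with the scale too, so this is no result about the list. Ccnt1, the cyclin of the elongation kinase that MYC recruits, averaged 46.7 ± 5.58 CPM with V560F, 52.7 ± 4.15 CPM with V465F, 77.3 ± 5.77 CPM with wild-type OPA1, 81.5 ± 3.78 CPM in knockdown and 95.2 ± 7.95 CPM in control. Its log2 fold change against wild-type OPA1 was -0.73 ± 0.0877 with V560F (edgeR adjusted p = 1.39e-06) and -0.55 ± 0.0867 with V465F (edgeR adjusted p = 5.82e-05), and both calls held on all 3 scales. Wdr5, a scaffold by which MYC reaches chromatin, was higher on the counts (0.28 and 0.16, edgeR adjusted p = 0.000715 and 0.0488; 0.02 and -0.01 on FPKM). Hdac2, a deacetylase of the SIN3 complex, was higher with V560F on the counts (0.17, edgeR adjusted p = 0.0174), not called after correction (0.11) and lower on FPKM (-0.09). Ccnt1, Pim1, Gadd45a and Cdkn1a each overlap a gene annotated on the opposite strand, so their counts may hold its reads.

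The genes most like 2 members over the libraries were found by Pearson's r of log2 CPM with n = 15 among 10147 genes with a mean of at least 1 FPKM. Mxd1 was most like Wwc1 (r = 0.960), Fbxo11 (0.959) and Etv5 (0.959), and 313 genes (3.08%) had r over 0.9 with it. Fbxo11 averaged 52.8 CPM with V560F, 52.7 CPM with V465F, 74.4 CPM with wild-type OPA1, 74.5 CPM in knockdown and 74 CPM in control, the same split between mutant and other libraries as Mxd1. Myc was most like Aldoc (0.973), Pcbp4 (0.968) and Syf2 (0.967), with 1202 genes (11.8%) over 0.9. These libraries share groups, depth and the gradient with length, so r describes a common order of libraries and has no test. In bulk RNA of this kind, fewer cells that express a gene and less RNA of it in each cell cannot be told apart.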

How the data were processed

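RNA of N2a cells was sequenced in 15 libraries, and groups and replicate numbers were taken from the sample titles. Per the labels' protocols, extraction was with TRIzol and library preparation with a VAHTS Universal V6 kit. The tools named per the submitters' processing notes are HTSeq, HISAT2, fastp and R 3.2.0, and the build is GRCm39; other versions, the annotation, the strand setting and filters are not given in the sources used here. The deposited table holds raw counts and FPKM for 22507 genes. The authors' FPKM equalled their counts over gene length and the table's total (largest relative gap 1.2e-06). The counts, 20070123 to 27809960 a library, were tested with edgeR 4.0.16 in R 4.3.3: TMM, filterByExpr (13074 genes left), a mean for each group in a single fit of all 15 libraries (10 degrees of freedom left), the quasi-likelihood test and Benjamini-Hochberg adjustment over these genes, with an adjusted p under 0.05 as a call. The median standard error was 0.105 to 0.11 (log2) and the median coefficient of biological variation 8.22%. The test was checked on simulated data.

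The members and all lists (network proteins, cofactors, stability regulators, genes induced or repressed by MYC, genes induced by MLX, cell markers) were chosen with earlier results of these data known. Every member was named, with the 3 members of each list of lowest p among the groups, and the 3 genes most like the member of lowest p and the member of highest FPKM; of the marker lists, genes with high and low levels were named instead, after their values were seen. Transcript length came from FPKM and GC content from GENCODE M21 by gene (12510 of 13074 genes, 95.7%). That release, on an older build, also gave the exon overlaps. Length and GC trends were removed from each library by a spline with 5 degrees of freedom as an offset. Other alternatives were DESeq2 size factors, DESeq2 1.42.0, limma-trend (limma 3.58.1) on log2(FPKM + 1) and log2(FPKM + 0.1), no filter, a replicate block, a fit of only the 6 libraries compared, a minimum of 5 FPKM in 3 libraries, and each library left out. Leaving out both V560F replicate 2 and wild-type OPA1 replicate 3 was chosen after seeing the data. Single values of some marker genes are not reported here.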

Additional observations from a re-analysis of the deposited data

How the results depend on the processing

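Under 25 alternatives, 2247 of 2464 member values kept their side of the threshold and, where called, their direction, 84 of them with a turn of sign that was called under neither setting. A further 108 lost the call, 69 gained it and 40 turned sign with a call in either setting. All 40 came from FPKM or from the length and GC correction. In V560F over wild-type OPA1, log2(FPKM + 1) gave Myc -0.05, Max -0.24, Mxi1 -0.14 and Mlx -0.01, and log2(FPKM + 0.1) gave Myc -0.05, Max -0.25, Mxi1 -0.14 and Mlx -0.01; the correction gave Mxd4 -0.02 and Mnt 0.02. In V560F over knockdown, the pseudocounts of 1 and 0.1 gave Mycn -0.21 and -0.23, Max -0.21 and -0.22, Mxd4 -0.01 and -0.02 and Mxi1 -0.16 and -0.17, and the correction gave Mxd4 -0.06 and Mnt 0.20. In V465F over knockdown, Max was -0.14 with both pseudocounts. In V560F over control they gave Mycn -0.37 and -0.39, Max -0.20 and -0.20, Mxi1 -0.02 and -0.02, Mnt -0.22 and -0.25, and Mlx -0.03 and -0.03. In V465F over control they gave Max -0.13 and -0.13, Mxi1 -0.13 and -0.14, Mnt -0.08 and -0.09, and Mlx -0.01 and -0.01. By construction FPKM is scaled by the table's total and not by TMM, which moved the median of all genes; what else differs was not tested. On FPKM with a pseudocount of 1, 17.8 to 24.1% of calls against wild-type OPA1, knockdown and control were higher, against 47.1 to 55.4% on the counts and 61.5 to 69.4% after the correction.

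Counts of called members moved as follows. In knockdown over control (3 in the counts), FPKM with either pseudocount gave 1, and only the 6 libraries compared, or leaving out both libraries farthest from their groups (an alternative chosen after seeing the data), gave 5. Calls over all genes, 4689 in the counts, were then 4615 with the pseudocount of 1 and 4200 with 0.1. They were 5971 with the 6 libraries and 5798 without both libraries. In V560F over wild-type OPA1 (5), the filter of 5 FPKM and the 6 libraries gave 2. Over all genes they gave 4639 and 5166, against 6464 in the counts. In V465F over wild-type OPA1 (3), FPKM with either pseudocount, the filter of 5 FPKM and leaving out both libraries gave 5. Over all genes FPKM gave 5269 and 5276 (pseudocounts of 1 and 0.1), the filter 3694 and leaving out both libraries 5928, against 4988. In wild-type OPA1 over control (5), FPKM with either pseudocount gave 1 and the filter 2. Over all genes FPKM gave 5656 and 5279 (pseudocounts of 1 and 0.1) and the filter 3327, against 5409. In V465F over control (7) the filter gave 4, and the count of all genes under this filter is given in the next paragraph. The filter tests fewer genes, but it removed no tested member. The cause of these moves was not tested. Leaving out 1 library at a time gave 2 to 5 called members in knockdown over control, 3 to 5 in V560F and 2 to 5 in V465F over wild-type OPA1, 3 to 4 in each mutant over knockdown, 3 to 5, 6 to 7 and 4 to 7 in wild-type OPA1, V560F and V465F over control, 6 to 7 among the 5 groups, and 0 in wild-type OPA1 over knockdown and in V465F over V560F. Calls over all 13074 genes moved too. They were 3237 to 5584 in knockdown over control, and 5392 to 6454 in V560F and 3658 to 5746 in V465F over wild-type OPA1. Over knockdown they were 6281 to 7044 with V560F and 4884 to 6574 with V465F. Over control they were 3923 to 6201, 8412 to 9007 and 7708 to 8907 with wild-type OPA1, V560F and V465F. Among the 5 groups they were 8680 to 9483.

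Counts over all genes moved by over 1.5 times under the filter of 5 FPKM in knockdown over control (2606 against 4689), wild-type OPA1 over control (3327 against 5409), V560F over control (5716 against 9031), V465F over control (5355 against 8531) and among the 5 groups (5965 against 9333). For wild-type OPA1 over knockdown (0) they were 7 with DESeq2, 40 with no filter, 3 with the 6 libraries, 19 without V560F replicate 2 and 2 without both libraries. For V465F over V560F (1) they were 144 with DESeq2, 6 with the pseudocount of 0.1, 580 with no filter, 7 with the filter, 0 with the 6 libraries, 77 after the correction, 18 without both libraries, and 0 to 834 without 1 library.

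Replicate numbers did not pair the libraries: of 30 same-numbered pairs, 0 correlated above 0.1 in their deviations from the group means (-0.179 to 0.0878). With the replicate block, Mycn was called in V465F over wild-type OPA1 (adjusted p = 0.0429), Mnt in V560F over knockdown (0.0466) and Mxd3 and Mnt in V560F over control (0.0435 and 0.0318), and it gave 3 genes in V465F over V560F; it lost no member's call. Mycl, at 0 to 14 counts, is below the depth at which a difference could be seen, and Mxd3 is the least precise of the tested members.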
